A study of Caenorhabditis elegans with 9 samples.

Results

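The genes described here are 106 of the 31106 genes counted in *Caenorhabditis elegans* mRNA-seq libraries of wild-type, *hrde-1* and *hrde-2* animals. Each of them had at most 3 counts in every wild-type library, at least 10 counts in every *hrde-2* library and fewer than 10 counts in at least one *hrde-1* library. Sperm gene families named by symbol, several other large gene families (collagens, histones, C-type lectins, *fbxa*, *math* and *bath* genes) and a few single sperm genes were left out beforehand. The genes were thus chosen by their counts in all 9 libraries. Levels and differences between genotypes of these genes are therefore a description, and none of the counts of called genes below supports a difference that the rule itself did not impose. The genes were collected as on in *hrde-2* only, but the rule allowed counts in *hrde-1* that it did not allow in wild-type. In *hrde-1* the mean CPM (counts per 1000000 counts of the scaled library) was above that of wild-type for 100 of the 106 genes. The rule favoured this in part, and no share over all genes is given for it. At most 3 counts in every *hrde-1* library were found for 16 genes. The word only is therefore not used, and the genes are called here silent in wild-type and on in *hrde-2*.

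RNA was taken from whole animals of 3 genotypes kept at 20 °C: the wild-type strain N2, *hrde-1(tm1200)* (strain USC661, chromosome III) and *hrde-2(qe20)*, an allele of a gene also called *enri-3* (strain FD53, chromosome V). All animals were adults of day 1, collected about 68 h after L1 arrest from synchronized cultures of about 50000 animals, and each genotype was sequenced as 3 biological replicates. Each mutant was a single allele in a single strain, so that allele, strain background and genotype cannot be told apart. The comparison asks which mRNAs depend on the nuclear Argonaute HRDE-1 and on HRDE-2.

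HRDE-1 is an Argonaute protein of germ cell nuclei that is guided by small RNAs to nascent transcripts, where it promotes silencing, deposition of histone H3K9 methylation and the inheritance of silencing by offspring. HRDE-2 is a germ granule protein that influences which small RNAs HRDE-1 carries. Adult hermaphrodites have switched their germ cells from making sperm to making oocytes, so that mRNAs of developing sperm are low in day 1 adults.

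Library totals ranged from 5801326 counts in wild-type replicate 3 to 11884233 in *hrde-1* replicate 1. A limit of 3 counts was worth 0.537 CPM in wild-type replicate 3 and 0.257 CPM in wild-type replicate 2, so that "silent" stands for a lower level in a deep library than in a shallow one. The transcript of the *hrde-2* gene measured 14.3, 15.5 and 19.3 CPM in its own mutant, below the 22.9, 52.1 and 42.3 CPM of wild-type. That of the *hrde-1* gene measured 108.0, 129.2 and 143.6 CPM in its own mutant, below the 200.4, 354.7 and 301.0 CPM of wild-type. Each targeted gene was thus lowest in its own mutant, although its transcript was still counted there. Wild-type replicate 1 stood apart from the other wild-type libraries, with 3503 CPM summed over 16 oocyte and eggshell genes against 8404 and 7479 CPM. *hrde-2* replicate 2 held the highest summed level of the 106 genes. The main counts of calls for the 106 genes are given with and without either library.

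The 106 genes went from a handful of reads in wild-type to low but measurable levels in *hrde-2*. Together they took 157, 129 and 76 counts in wild-type replicates 1, 2 and 3, 594, 601 and 539 counts in the *hrde-1* libraries, and 1974, 3444 and 2416 counts in the *hrde-2* libraries. Scaled, the sum came to 15.1 ± 4.93 CPM for wild-type, 61.0 ± 9.54 CPM for *hrde-1* and 233.4 ± 48.8 CPM for *hrde-2* (SD, n = 3). The *hrde-1* libraries lay between the other genotypes, and the libraries of no genotype overlapped those of another. The *hrde-2* mean was 205.4 CPM without *hrde-2* replicate 2 and 188.2 CPM without the 10 highest genes. Since whole animals were sequenced, more cells that make these mRNAs and more mRNA per cell cannot be told apart.

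**Figure D1:**
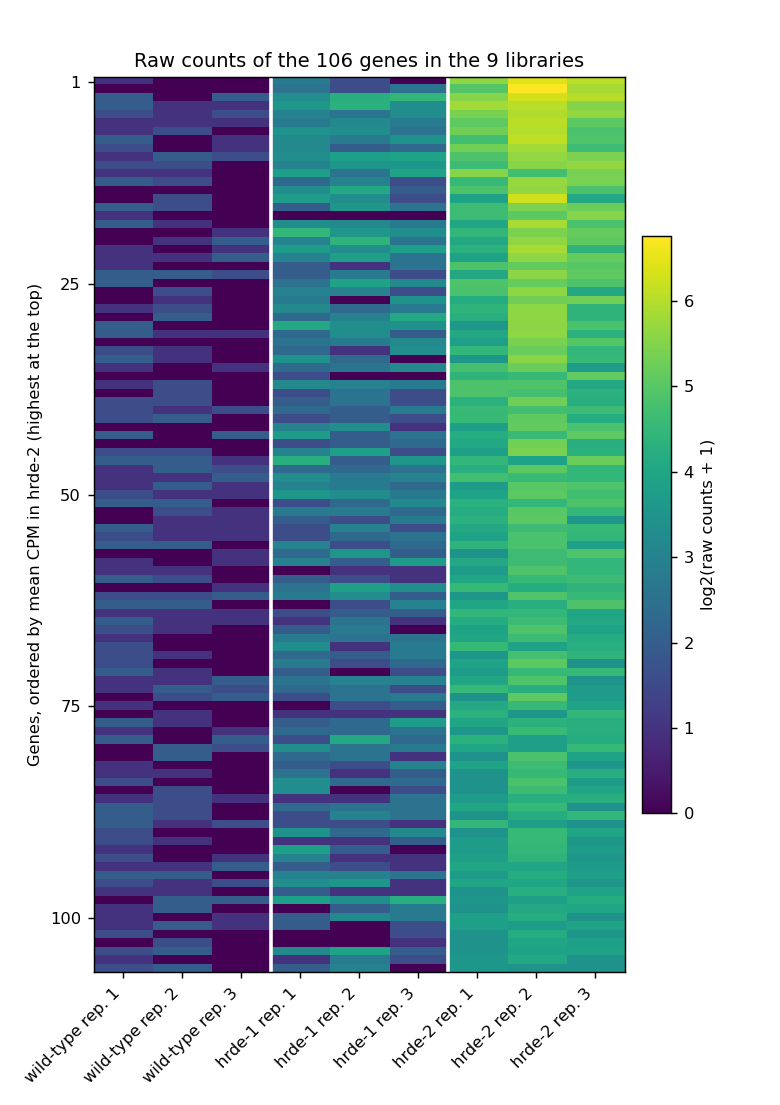
Raw counts of the 106 genes (rows, ordered by mean CPM in hrde-2) in the 9 libraries (columns), coloured as log2(raw counts + 1). Wild-type columns are dark by the rule, with 24, 35 and 61 genes at 0 in replicates 1, 2 and 3, the hrde-1 columns are intermediate with 7, 8 and 7 genes at 0, and no gene is at 0 in hrde-2.

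Single genes rested on few reads, as the plot of raw counts by library shows. In wild-type, 6 genes had no count in any library, 49 had 1 to 3 counts over the 3 libraries and 51 had more. The mean level in *hrde-2* ran from 0.948 to 5.99 CPM with a median of 1.86 CPM. Per kilobase of exon, the median over the 106 genes was 1.97 CPM in *hrde-2*, against 2.24 CPM for the 19782 genes with a count in any library. By this measure 43 of the 106 genes exceeded the all-gene median in *hrde-2*, while none did in wild-type or in *hrde-1*. Within *hrde-2*, replicate 2 gave the highest CPM for 73 of the genes, replicate 1 for 20 and replicate 3 for 13. The highest *hrde-2* library exceeded the lowest by 1.82-fold in the median gene and by more than 3-fold in 7 genes.

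Across the whole table, the quasi-likelihood test of edgeR called 7.57% of the 12141 genes tested higher in *hrde-2* than in wild-type (Benjamini-Hochberg adjusted p under 0.05). Of the 106 genes, 93 passed the filter on low counts and 87 of these were called, a number that follows from the rule. The groups did not overlap for any of the 106 genes, which the rule also fixed, against 15.7% of all genes tested. The median log2 fold change of the 93 tested genes was 3.95, also with those 6 genes set at the bound that 3 counts give, against -0.10 for all genes tested. Leaving out *hrde-2* replicate 2 left 60 calls among 84 tested, while the share over all genes fell to 4.14%. Leaving out wild-type replicate 1 gave 97 among 105, with 13.4% over all genes.

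Between the mutants, 3.22% of all genes tested were called higher in *hrde-2* than in *hrde-1* and 30 of the 93 tested genes were among them. Every *hrde-2* library exceeded every *hrde-1* library for 90 of the 106 genes, against 16.8% of all genes tested. The rule asked for this difference in part, and nothing is read from either count. The median log2 fold change of the 93 tested genes was 1.94, against -0.01 over all genes tested. With the replicate number as a block the calls were 17 of 93 in a fit of all 9 libraries (2.18% over all genes) and 64 of 99 in a fit of the 6 mutant libraries (8.96%). The calls fell to 3 of 84 without *hrde-2* replicate 2, where 0.236% of all genes were called, and to 8 of 99 and 9 of 93 without replicates 1 and 3 of *hrde-2* (0.858% and 0.926%). Without one *hrde-1* library they numbered 5 to 10, with 0.561% to 1.17% over all genes. Without wild-type replicate 1 they rose to 56 of 105, with 8.23% over all genes. Without *hrde-2* replicate 2 the libraries of the mutants were in separate ranges for 92 of the 106 genes, against 20.6% of all genes tested.

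In *hrde-1* against wild-type, 1.24% of all genes tested were called higher and 2 of the 93 tested genes were, *R09E10.2* and *fog-3*. At an unadjusted p under 0.05 the number was 48, for which no share over all genes is given. The Wald test of DESeq2 called 10, against 3% of all genes it tested. Every *hrde-1* library exceeded every wild-type library for 50 of the 106 genes, against 12.8% of all genes tested. The median log2 fold change was 1.92, or 1.88 with the 6 genes that had no wild-type count set at their bound, against -0.03 over all genes tested. Without wild-type replicate 1 the count of calls was 19 of 105, while the share over all genes rose to 6.12%. The *hrde-1* and wild-type libraries were then apart for 69 of the 106 genes, against 23.9% of all genes tested. Without wild-type replicate 2 or without *hrde-1* replicate 1 the test of edgeR gave 0, with 0.705% and 1% over all genes. The unadjusted p was then under 0.05 for 33 and 44 genes, again without a share over all genes. Without any other library the test of edgeR gave 1 or 2, with 0.681% to 0.921% over all genes.

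For most genes the *hrde-1* level was well below the *hrde-2* level and above that of wild-type. The mean CPM in *hrde-1* as a percentage of that in *hrde-2* had a median of 25.1%, with quartiles of 16.6% and 35.9% and a range from 0% to 113.5%. The median was 30.9% without *hrde-2* replicate 2. It was under 10% for 9 genes and over 50% for 8 genes. Of the 106 genes, 73 had fewer than 10 counts in all *hrde-1* libraries, 23 reached 10 counts in a single library and 10 in all but one.

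**Figure D2:**
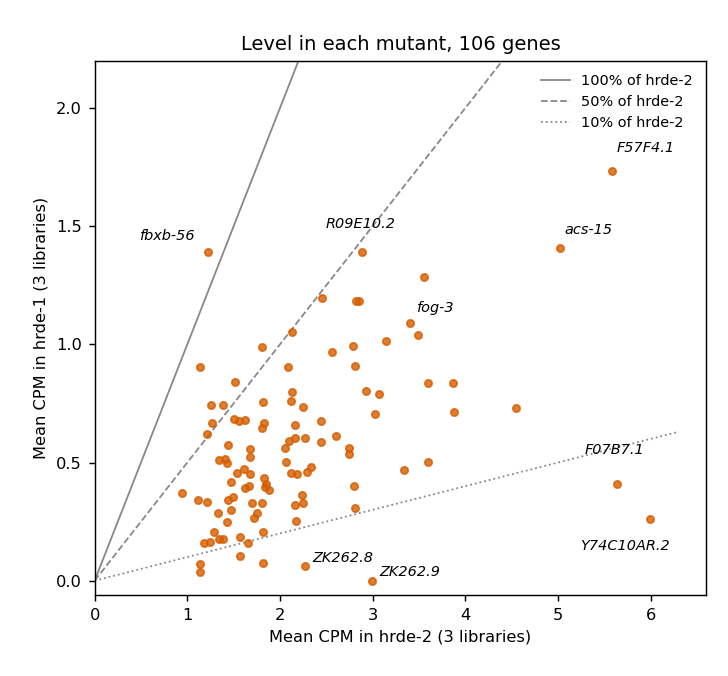
Mean CPM over 3 libraries in hrde-2 (horizontal) against hrde-1 (vertical) for each of the 106 genes (points), with lines at 100%, 50% and 10% of the hrde-2 level. Most points lie between the 10% and 50% lines, 9 lie below the 10% line, and fbxb-56 alone lies above the 100% line.

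The highest CPM in *hrde-2* belonged to *Y74C10AR.2* (WBGene00022282; chromosome I, 2483203 to 2483705, plus strand, WBcel235), a gene of a single exon annotated to encode 149 residues. It had 1, 0 and 0 counts in wild-type, 6, 2 and 0 counts in *hrde-1* and 48, 87 and 67 counts in *hrde-2*. All *hrde-2* libraries were above all others, while *hrde-1* and wild-type overlapped. The ratio of *hrde-2* to wild-type was 151, with a 95% counting interval from 26.7 to 5979, which covers counting error only, as all such intervals here do. Against *hrde-1* its log2 fold change was 4.40 ± 0.68 (SE). Per kilobase of exon it was also the highest of the 106 genes, at 11.92 CPM. The gene lies inside the span of *abtm-1*, on the other strand and outside its exons. *abtm-1* itself had 164, 140 and 78 counts in wild-type, 298, 101 and 149 in *hrde-1* and 506, 583 and 358 in *hrde-2*, and edgeR called it higher in *hrde-2* than in wild-type (log2 fold change 1.48, adjusted p = 0.0127). Since reads were counted without strand, unspliced *abtm-1* RNA and *Y74C10AR.2* mRNA cannot be told apart.

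*F07B7.1* (WBGene00021106; chromosome V, 8830183 to 8831441, plus strand) followed, with no count in wild-type, 5, 2 and 5 counts in *hrde-1* and 30, 107 and 57 counts in *hrde-2*. The 3 genotypes did not overlap. It was at least 48.2-fold higher in *hrde-2* than a floor of 3 counts over the wild-type group and 3.73 ± 0.59 higher on the log2 scale than in *hrde-1*.

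*F57F4.1* had 3, 0 and 3 counts in wild-type, 9, 18 and 21 in *hrde-1* and 45, 79 and 64 in *hrde-2*. It held the highest mean CPM of the 106 genes in *hrde-1*, at 1.73 ± 0.80 CPM, while the *hrde-2* mean was 5.58 ± 0.95 CPM (SD, n = 3). The log2 fold change between the mutants was 1.70 ± 0.56, and the libraries of the 3 genotypes were in separate ranges.

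*acs-15*, which encodes a member of the acyl-CoA synthetase family that activates fatty acids, had 3, 1 and 1 counts in wild-type, 11, 19 and 9 in *hrde-1* and 55, 66 and 44 in *hrde-2*. Again the genotypes did not overlap. Its log2 fold change was 4.52 ± 0.63 against wild-type and 1.84 ± 0.48 against *hrde-1*. *M162.7* had the closest replicates of the 10 highest genes, with 2, 1 and 2 counts in wild-type, 7, 5 and 9 in *hrde-1* and 41, 61 and 50 in *hrde-2*. Its log2 fold change was 4.36 ± 0.56 against wild-type and 2.62 ± 0.46 against *hrde-1*.

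The other 5 of the 10 highest genes were *T09F5.10*, *F58A6.5*, *ZK892.3*, *ZK418.2* and *C10H11.7*, whose *hrde-2* means ran from 3.56 to 3.88 CPM and whose *hrde-1* means ran from 0.503 to 1.29 CPM. *T09F5.10* had 1 count in every wild-type library, 6, 8 and 6 in *hrde-1* and 33, 65 and 32 in *hrde-2*. *ZK892.3* varied most of these 5 among its *hrde-2* libraries, with 25, 68 and 29 counts. In all 5 genes the *hrde-2* libraries were above the *hrde-1* libraries and these above the wild-type libraries. CPM does not correct for length, and among these 10 genes the level per kilobase of exon ranged from 1.95 CPM in *M162.7* to 11.92 CPM in *Y74C10AR.2*.

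**Figure D3:**
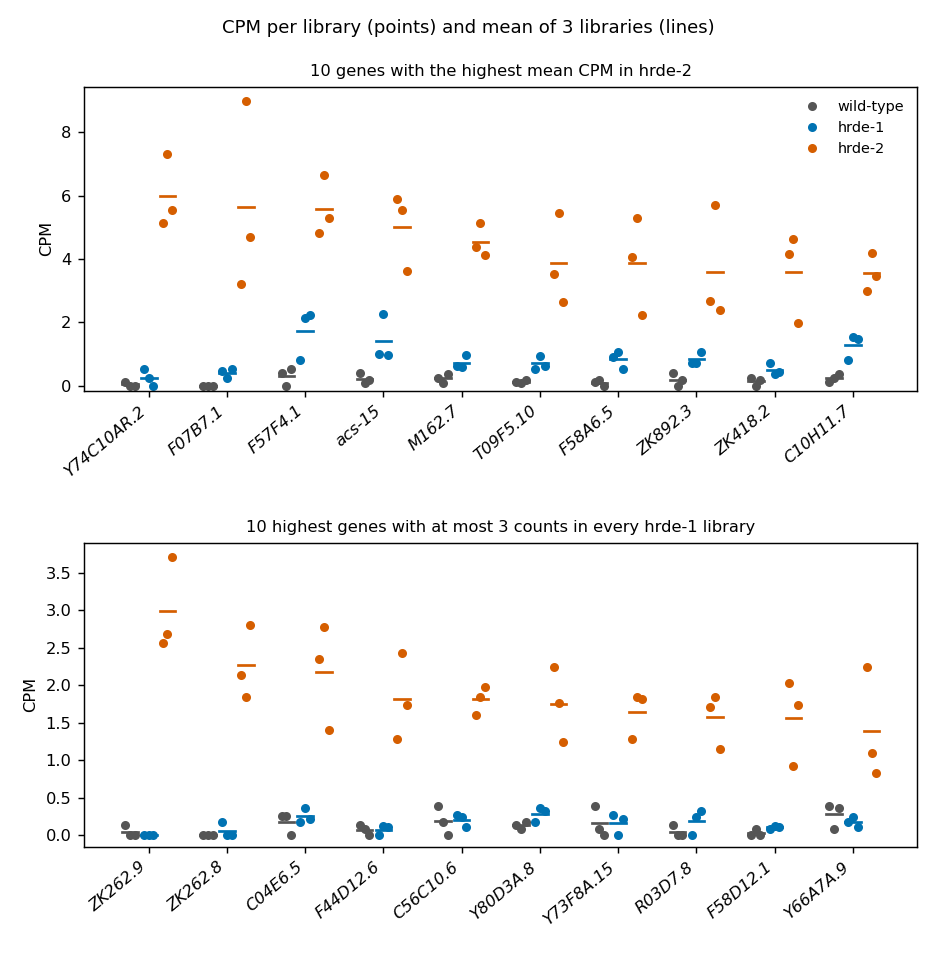
CPM in each library (points) and the mean of 3 libraries (lines) in wild-type, hrde-1 and hrde-2, for the 10 genes with the highest mean CPM in hrde-2 (top) and the 10 highest genes with at most 3 counts in every hrde-1 library (bottom). In the top panel hrde-1 mostly lies between the other genotypes, and in the bottom panel hrde-1 and wild-type lie together near 0, while ZK262.9 reaches a mean of 2.99 CPM in hrde-2.

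The plot of CPM by library also shows the 16 genes for which *hrde-1* was as silent as wild-type by the counts, with at most 3 counts in every *hrde-1* library. The clearest was *ZK262.9* (WBGene00013954; chromosome V, 18440578 to 18441340, plus strand), the only one of the 106 with no count in any *hrde-1* library. It had 1, 0 and 0 counts in wild-type and 24, 32 and 45 in *hrde-2*. Its level in *hrde-2* was at least 29.1-fold higher than a floor of 3 counts over the *hrde-1* group. The gene beside it on the same strand, *ZK262.8* (WBGene00013953; 18438381 to 18440195), lay 383 bp away and is also among the 106. *ZK262.8* had no count in wild-type, 2, 0 and 0 in *hrde-1* and 20, 22 and 34 in *hrde-2*. Its ratio of *hrde-2* to *hrde-1* was 32.8 with a 95% counting interval from 8.78 to 275.9. In both genes replicate 3 was the highest *hrde-2* library, not replicate 2 as in most of the 106.

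*C04E6.5* had 2, 3 and 0 counts in wild-type, 2, 3 and 2 in *hrde-1* and 22, 33 and 17 in *hrde-2*, and its *hrde-1* and wild-type libraries overlapped. The log2 fold change between the mutants was 3.08 ± 0.65. *F44D12.6* had 1, 1 and 0 counts in wild-type, 0, 1 and 1 in *hrde-1* and 12, 29 and 21 in *hrde-2*, a ratio to *hrde-1* of 26.8 with a 95% counting interval from 7.11 to 226.0. *C56C10.6* had 3, 2 and 0 counts in wild-type, 3, 2 and 1 in *hrde-1* and 15, 22 and 24 in *hrde-2*. In these 3 genes wild-type and *hrde-1* overlapped, while *hrde-2* stood above both.

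Of the remaining genes in the lower panel, *Y80D3A.8*, *Y73F8A.15* and *R03D7.8* had 2.58 ± 0.58, 3.19 ± 0.79 and 3.06 ± 0.80 as log2 fold changes between the mutants. *F58D12.1* and *Y66A7A.9* did not pass the filter on low counts. *F58D12.1* had 19, 11 and 21 counts in *hrde-2* and 1 count in each *hrde-1* library. Its exons overlap *F58D12.5* on the other strand, where reads were counted for neither gene, so its value is uncertain. *F58D12.5* had no count in any library. *Y80D3A.8* is a long gene of 3828 bp of exon, and per kilobase it was the lowest of the 106 genes in *hrde-2*, at 0.457 CPM.

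At the other end were genes with a clear level in *hrde-1*. *fbxb-56*, an F-box gene, had 0, 3 and 3 counts in wild-type, 13, 9 and 18 in *hrde-1* and 11, 13 and 17 in *hrde-2*. The *hrde-1* mean of 1.39 ± 0.46 CPM exceeded the *hrde-2* mean of 1.22 ± 0.16 CPM (SD, n = 3), but the mutants overlapped. It met the rule through a single *hrde-1* library with 9 counts. *R09E10.2* had 0, 0 and 1 counts in wild-type, 21, 11 and 9 in *hrde-1* and 21, 42 and 35 in *hrde-2*. Its *hrde-1* libraries lay below its *hrde-2* libraries by CPM, and the ratio of *hrde-1* to wild-type was 35.4 with a 95% counting interval from 6.01 to 1432.

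Only 22 of the 106 genes carried a gene class symbol, 20.8% against 48.99% of the genes with a count and 31.0% of the 5738 genes that were silent in wild-type by the same limit. Leaving out gene families by symbol lowered this share in part, and with the same names removed the comparison sets held 47.15% and 28.65%. Among them was *fog-3*, which encodes a Tob family protein that germ cells need to become sperm instead of oocytes. *fog-3* (WBGene00001483; chromosome I, 10016778 to 10018114, plus strand) had 1, 1 and 0 counts in wild-type, 13, 5 and 14 in *hrde-1* and 45, 25 and 40 in *hrde-2*. The genotypes did not overlap, and here *hrde-2* replicate 2 was the lowest *hrde-2* library. The ratio to wild-type was 41.02 in *hrde-2* with a 95% counting interval from 11.1 to 342.9 and 13.8 in *hrde-1* with an interval from 3.53 to 119.0. *fog-3* was called in *hrde-1* against wild-type, with an adjusted p from edgeR above 0.05 when any library other than wild-type replicate 1 was left out.

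The other regulators of spermatogenesis, which act in the choice between sperm and oocyte or in the sperm programme itself, were not silent in wild-type. Of 16 such regulators, all of which were tested, 2 were called higher in *hrde-2* than in wild-type, *fog-3* and *cpb-1*, against 7.57% of all genes tested, and *fog-3* was there through the rule. Leaving out *hrde-2* replicate 2 made the count 1 (4.14% over all genes), and leaving out wild-type replicate 1 made it 4 (13.4%). *cpb-1* encodes a protein of the CPEB family that is needed in spermatogenesis, and its level was 33.4 ± 1.09 CPM in *hrde-2* against 20.3 ± 2.29 CPM for wild-type (SD, n = 3). The median log2 fold change of the 16 was 0.39 against wild-type in *hrde-2*. *fog-1*, the partner of *fog-3* in this choice, had 40, 158 and 72 counts in wild-type and 113, 167 and 188 counts in *hrde-2*, which overlapped. None of the other regulators met the rule.

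Genes of metabolism with a symbol included *hdl-2*, named for its likeness to histidine decarboxylase, with no count in wild-type, 9, 16 and 3 in *hrde-1* and 28, 50 and 27 in *hrde-2*. It was at least 26.1-fold higher in *hrde-2* and at least 8.06-fold higher in *hrde-1* than the floor of 3 counts over wild-type. *cbs-2*, a cystathionine beta-synthase of sulfur amino acid metabolism, had 2, 1 and 1 counts in wild-type, 2, 4 and 5 in *hrde-1* and 14, 27 and 21 in *hrde-2*. The exons of *cbs-2* overlap *F54A3.10* on the other strand, where reads were counted for neither gene, and *F54A3.10* had no count in any library. *mboa-4*, of the membrane-bound O-acyltransferase family, had 7, 20 and 5 counts in *hrde-1* and 16, 49 and 33 in *hrde-2*, and the mutants overlapped.

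Membrane transport was represented by *snf-2*, *wht-5*, *scrm-7* and *zipt-17*. *snf-2* belongs to the sodium-dependent neurotransmitter transporter family and had 3, 2 and 0 counts in wild-type, 3, 11 and 5 in *hrde-1* and 24, 42 and 36 in *hrde-2*. *wht-5* encodes an ABC transporter of the white family and had 0, 2 and 0 counts in wild-type, 7, 7 and 2 in *hrde-1* and 27, 48 and 16 in *hrde-2*. In both genes every *hrde-2* library was above every *hrde-1* library. *scrm-7*, of the phospholipid scramblase family, and *zipt-17*, of the ZIP zinc transporter family, were near the limits of the rule, with 10 to 16 and 10 to 11 counts in *hrde-2*.

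Proteases were *nep-9* and *nep-10*, neighbouring genes for metallopeptidases of the neprilysin family on chromosome II, and *clp-8*, a calpain family gene. *nep-9* had 0, 2 and 0 counts in wild-type, 9, 0 and 2 in *hrde-1* and 10, 24 and 15 in *hrde-2*. *nep-10* had 2, 2 and 0 counts in wild-type, 7, 13 and 2 in *hrde-1* and 13, 41 and 19 in *hrde-2*, and its mutants touched at 13 counts and overlapped by CPM. *clp-8* had 11, 9 and 6 counts in *hrde-1* and 14, 32 and 25 in *hrde-2*, in separate ranges.

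*rpl-42*, named after a protein of the large ribosomal subunit, was among the most even genes in *hrde-2*. It had 1, 0 and 0 counts in wild-type, 3, 1 and 5 in *hrde-1* and 28, 34 and 31 in *hrde-2*. Its level in *hrde-2* was 2.80 ± 0.22 CPM (SD, n = 3), and its log2 fold change against *hrde-1* was 3.12 ± 0.62. *sepa-1* encodes a selective autophagy adaptor that removes germ granule proteins from somatic cells of embryos. It had 3, 3 and 1 counts in wild-type, 18, 3 and 11 in *hrde-1* and 21, 14 and 36 in *hrde-2*, and its mutants overlapped.

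The remaining symbols were *ztf-31*, of the zinc finger proteins, *irld-14*, of the genes with insulin and EGF receptor L domains, *scl-23*, of the SCP-like secreted proteins, *sdz-35*, named for zygotic transcripts that depend on SKN-1, and *msrp-4*, *txt-1* and *lido-16*. Their mean level in *hrde-2* ran from 1.25 CPM in *lido-16* to 2.27 CPM in *msrp-4*. *sdz-35* stood out by a single *hrde-1* library, with 2, 16 and 4 counts in *hrde-1* and 19, 13 and 17 in *hrde-2*, and was not called in any contrast. *scl-23* was even in *hrde-1*, with 6, 5 and 5 counts, and had 15, 24 and 17 in *hrde-2*.

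The borders of the rule ran through a continuous range of counts. Just inside, *txt-1*, *Y67A10A.3* and *ZC412.5* had a lowest *hrde-2* count of 10, as 20 of the 106 genes did, and 46 had a wild-type library at 3 counts. Just outside, *nep-23* had 9, 42 and 28 counts in *hrde-2*, *C18H2.5* had 9, 37 and 18, and *try-7* had 9, 26 and 23. *T08B6.9*, *kin-5* and *C55C3.4* were outside through a wild-type library with 4 counts, although *T08B6.9* had 47, 103 and 46 counts in *hrde-2*. Left out by name were *fbxa-218*, *spe-10* and *clec-119*, with 13, 14 and 15, 18, 18 and 19, and 17, 47 and 31 counts in *hrde-2*, respectively.

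A further 13 genes that were silent in wild-type had at least 10 counts in all mutant libraries. With the mutants exchanged, 16 genes met the counts of the rule, against 109 as it stands, both before names were left out. Summed over the 13 genes, the *hrde-1* libraries held 41.4, 43.5 and 43.9 CPM and the *hrde-2* libraries 53.2, 79.2 and 66.8 CPM. The largest of them was *F55B11.6*, named here after its values were seen, with 0, 2 and 0 counts in wild-type, 109, 93 and 137 in *hrde-1* and 214, 374 and 354 in *hrde-2*. Just outside the rule by their *hrde-1* counts were *T27A3.5*, with 21, 13 and 10 counts in *hrde-1*, *F32B5.1*, with 10, 26 and 21, and *F59A6.4*, with 21, 14 and 11. For these 3 genes *hrde-2* again held 31 counts or more in every library. In the opposite pattern, 2 genes had at least 10 counts in every wild-type library and at most 3 in every *hrde-2* library, before names were left out. The limits are not matched, since 3 counts were worth 0.248 to 0.321 CPM in *hrde-2* and 0.257 to 0.537 CPM in wild-type.

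The position of the genes was not used by the rule. None of the 106 genes lay on chromosome X, against 14.3% of the 5738 genes silent in wild-type, 14.3% of the 19782 genes with a count and 13.4% of the genes tested. Among the 832 other genes called higher in *hrde-2* than in wild-type, 0.841% lay on chromosome X. Chromosome II held 31 of the 106 genes, 29.2% against 18.9% of the genes silent in wild-type, and chromosome IV held 25, 23.6% against 16.4%. Chromosomes V, I and III held 23, 16 and 11 genes. No chance test was made of these shares.

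**Figure D4:**
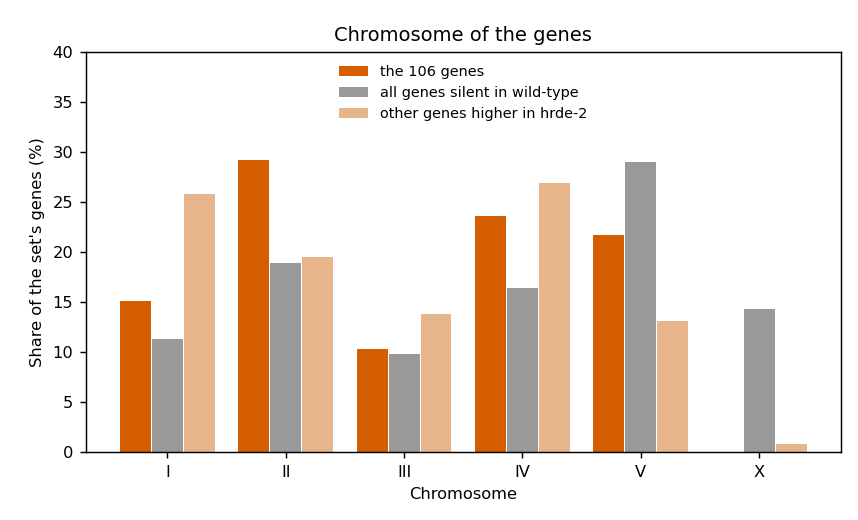
Share of genes on each chromosome (percent of the set, bars from 0) for the 106 genes, for all 5738 genes with a count that were silent in wild-type by the same limit, and for the 832 other genes called higher in hrde-2 than in wild-type. The 106 genes have no bar on X, where 14.3% of the genes silent in wild-type and 0.841% of the other higher genes lie.

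The 106 genes were annotated as 104 protein-coding genes and 2 pseudogenes, WBGene00013979 and WBGene00014870. None was a noncoding RNA gene, a class that made up 16.02% of the genes silent in wild-type but 0.461% of the genes tested and 0.361% of the other genes called higher in *hrde-2*. A single exon was present in 2 genes, *Y74C10AR.2* and *msrp-4*, which is 1.89% against 23.3% of the genes silent in wild-type and 2.30% of the genes tested. The median exon length was 1061 bp, against 761.5 bp for the genes silent in wild-type and 1373 bp for the genes tested. A limit of 10 counts is reached more easily by long genes, and the part of length in these shares was not tested. The median predicted protein was 315.5 residues long.

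The genes were spread over the autosomes. The median distance to the nearest other member was 147735.5 bp, and 8 of the 106 lay within 10000 bp of one: *ZK262.8* with *ZK262.9*, *nep-9* with *nep-10*, and *C25G4.7* with *C25G4.8* and *Y51A2B.5* with *Y51A2B.6*, of which the last 4 were named after their values were seen. *C25G4.7* had 738 bp between it and *smz-1*, a sperm gene of the families left out. For each gene the nearest annotated gene with a count in any library was also looked up. Of the 102 that were not among the 106, 50 were tested, and 11 of these, or 22%, were called higher in *hrde-2* than in wild-type, against 7.57% of all genes tested. Leaving out *hrde-2* replicate 2 gave 8 of 50 (4.14% over all genes), and leaving out wild-type replicate 1 gave 15 of 53 (13.4%). The median log2 fold change of the 50 was 0.17.

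Exons of 6 of the 106 genes overlapped exons of a gene on the other strand, and none overlapped exons of a gene on the same strand. The span of a further 6 overlapped that of a gene on the other strand without shared exons, *Y74C10AR.2*, *Y54E2A.7* and *fbxb-56* among them. *Y54E2A.4*, which overlaps *Y54E2A.7*, had 643, 824 and 496 counts in wild-type and 1048, 1147 and 949 counts in *hrde-2*, while the annotated pseudogene that overlaps *fbxb-56* had at most 2 counts in a library. The 6 genes with shared exons were *R102.10*, *ZK512.10*, *F16C3.4*, *R10D12.10*, *F58D12.1* and *cbs-2*. Without them, 83 of 89 tested genes were called higher in *hrde-2* than in wild-type and 27 of 89 higher than in *hrde-1*. Over all genes tested the shares were 7.57% and 3.22%.

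Small RNAs bound by HRDE-1 and the histone mark H3K9me3 had been measured in other libraries, which the rule did not use, and the resulting lists of gene identifiers were compared with the 106 genes. Genes enriched among HRDE-1-bound small RNAs in *mut-2* mutants held 3 of the 106 genes, *fog-3*, *cbs-2* and *ZK262.8*, which is 2.83% against 4.66% of the genes with a count, 1.76% of the genes silent in wild-type and 7.69% of the other genes called higher in *hrde-2*. In *simr-1* mutants the list held *lido-16* and *rpl-42*, 1.89% against 3.64%, 1.39% and 2.64% in the same order. In *simr-1 mut-2* mutants it held *fog-3*, *cbs-2*, *C34D4.2*, *C07E3.4* and *Y116A8C.24*, 4.72% against 1.66%, 0.523% and 3.37%, or 1.47% of the 341 genes on that list. *Y116A8C.24* had 0, 2 and 0 counts in wild-type, 0, 0 and 1 in *hrde-1* and 10, 15 and 13 in *hrde-2*. These lists come from mutants other than those compared here, and those for wild-type and *hrde-2* animals were not analysed here.

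Genes that gained H3K9me3 in *hrde-2* mutants held 3 of the 106, *Y74C10AR.2*, *Y54E2A.7* and *B0207.11*, which is 2.83% against 1.95% of the genes with a count, 1.08% of the genes silent in wild-type and 2.64% of the other higher genes. *Y54E2A.7* had 2, 2 and 0 counts in wild-type, 7, 11 and 11 in *hrde-1* and 24, 45 and 50 in *hrde-2*, in separate ranges. *B0207.11* had 3, 0 and 0 counts in wild-type, 5, 14 and 8 in *hrde-1* and 29, 35 and 28 in *hrde-2*. With 2 to 5 genes on each list, the shares are given as they stand. The antibody behind this list also bound other histone marks, so that the mark itself is not certain.

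By their mean sums, sperm genes ranked the genotypes as the 106 genes did. A list of 69 sperm genes by symbol, none of which could be among the 106, reached 1151, 1471 and 1144 CPM per *hrde-2* library. It summed to 401.9, 569.3 and 551.5 CPM per *hrde-1* library and to 402.3, 241.5 and 228.8 CPM per wild-type library. Of its 52 tested genes, 42 were called higher in *hrde-2* than in wild-type, 28 higher in *hrde-2* than in *hrde-1*, and 8 higher in *hrde-1* than in wild-type. In the same order, the shares over all genes tested were 7.57%, 3.22% and 1.24%. With *hrde-2* replicate 2 left out the sperm gene counts were 36, 1 and 3, against 4.14%, 0.236% and 0.911% over all genes. With wild-type replicate 1 left out they were 45, 39 and 36 of 54 tested, against 13.4%, 8.23% and 6.12%. As for the 106 genes, the *hrde-2* sum was highest in replicate 2 and the wild-type sum highest in replicate 1. Between 1 and 14 of the 69 genes were at 0 in a library. The part of sperm mRNA in the levels of the 106 genes was not tested.

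**Figure D5:**
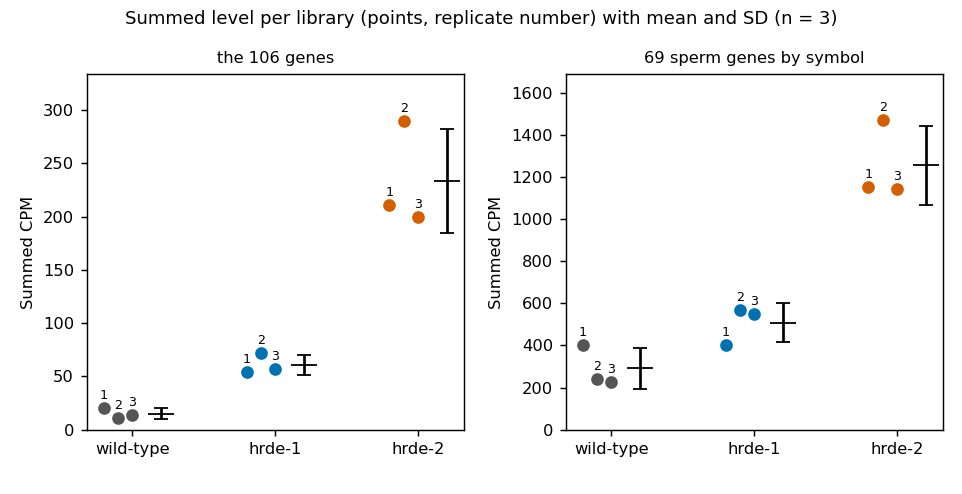
Summed CPM per library (points, with the replicate number) and mean with SD (n = 3) in each genotype, for the 106 genes (left) and for 69 sperm genes by symbol (right). The means on the left are 15.1, 61.0 and 233.4 CPM for wild-type, hrde-1 and hrde-2, and in both panels hrde-2 replicate 2 is the highest library.

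The 10 genes of the male soma summed to between 0 and 1.60 CPM, with 5 to 10 of them at 0 in a library. *lov-1*, *cwp-2* and *cwp-3* were at 0 in all. *mab-3* had 4, 0 and 0 counts in wild-type, 1, 2 and 0 in *hrde-1* and 5, 17 and 9 in *hrde-2*. *cwp-5* went the other way, with 0, 0 and 4 counts in wild-type and 1, 0 and 0 in *hrde-2*. Of the 2 genes for proteins of male seminal fluid, *try-5* had 1 to 8 counts in a library and *swm-1* had 182, 132 and 69 counts in wild-type and 133, 122 and 86 counts in *hrde-2*, which overlapped. The 6 early embryo genes summed to 0.393, 0.257 and 0.358 CPM in wild-type and to 1.09, 0.119 and 0.320 CPM in *hrde-1*. In *hrde-2* they summed to 1.07, 0.924 and 1.07 CPM, above every wild-type library. These sums rested on few reads, such as 0, 0 and 2 counts of *pes-10* in wild-type and 6, 7 and 9 in *hrde-2*. Oocyte and eggshell genes summed to between 5584 and 7947 CPM in *hrde-2*, between 8746 and 9667 CPM in *hrde-1* and between 3503 and 8404 CPM in wild-type. Of these 16, 1 was called lower in *hrde-2* than in wild-type, *perm-2*, against 4.25% of all genes tested. Intestinal genes, most of them vitellogenins, summed to between 25902 and 40401 CPM in *hrde-2* and between 46189 and 63296 CPM in wild-type, and 2 of the 7 were called lower, as were 4.25% of all genes tested. The 8 germ cell genes summed to between 1800 and 2285 CPM in *hrde-2* and between 988.9 and 1616 CPM in wild-type. Of these 8, 1 was called higher, against 7.57% of all genes tested. Sums of muscle genes (1242 to 2385 CPM in *hrde-2* against 2277 to 4092 CPM in wild-type), of neuron genes (137.0 to 157.0 against 155.3 to 206.9 CPM) and of hypodermis genes (1192 to 1380 against 984.2 to 1354 CPM) overlapped between these genotypes. The part of these cell types in the levels of the 106 genes was not tested.

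Of the 14 genes of the HRDE-1 and nuclear RNAi pathway, none was among the 106. *simr-1*, whose protein works with HRDE-2 in germ granules, was called higher in *hrde-2* than in wild-type, at 86.5 ± 2.62 CPM against 47.0 ± 8.55 CPM (SD, n = 3), and *hrde-2* itself was called lower. The remaining 12 were not called in that contrast, and the *hrde-1* gene had 441.1 ± 4.72 CPM in *hrde-2* against 285.4 ± 78.4 CPM in wild-type.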

How the data were processed

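The authors sequenced polyadenylated RNA as single-end reads, used Trimmomatic 0.39 for trimming, HISAT2 2.2.1 for alignment to release WS258 and featureCounts of Subread 2.0.1 for counting over exons. They deposited raw counts for 31106 genes. No strand option was set although the kit was directional, so that reads of overlapping genes on opposite strands were not told apart, and reads that overlap several genes or map to several places were not counted. Gene names, types and overlaps come from the Ensembl WBcel235 annotation, in which 30911 identifiers and all 106 members were found. Coordinates are those of the files.

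Groups and replicate numbers came from the sample titles. The main analysis used edgeR 4.0.16 under R 4.3.3: filterByExpr, TMM scaling and a robust quasi-likelihood fit of genotype to all 9 libraries, with adjustment by the Benjamini-Hochberg method over all 12141 genes tested. Only members are printed, and standard errors come from the F statistic. CPM are counts per 1000000 of the scaled library. A fold against a group with no count uses 3 counts over the group. With 1 to 3 counts a ratio with an exact 95% binomial counting interval is given.

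Same-numbered *hrde-1* and *hrde-2* libraries deviated together from their group means (r = 0.16, 0.13 and 0.25), but same-numbered wild-type libraries did not (between -0.29 and 0.18). Larger values were found between libraries of different numbers. They were 0.41 for wild-type replicate 2 with *hrde-2* replicate 3 and 0.32 for wild-type replicate 1 with *hrde-2* replicate 2. Whether equal numbers mark pairs is thus not settled. The main fit took no pairs, and a replicate block was run as an alternative. The labels do not say what a number shares.

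Members and lists were chosen with earlier results of these data known. Genes named are the 10 highest in *hrde-2*, the 10 highest with at most 3 counts in every *hrde-1* library, the 5 highest in *hrde-1*, those with a class symbol, those on a list of the study and those at the limits of the rule. Alternatives were other scalings, no filter, DESeq2 1.42.0, fits of 6 libraries, a replicate block, removal of ribosomal RNA genes, other limits, thinning and leaving out each library. Added after seeing the data were leaving out genes with an overlap, CPM from library totals, sums without the 10 highest genes, and further counts without *hrde-2* replicate 2 or wild-type replicate 1. The planned search of promoters and gene products was not made, and no sequence is shown.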

Additional observations from a re-analysis of the deposited data

How the results depend on the processing

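The set itself depended on its limits. It held 31 genes with at most 1 count and 224 with at most 5 counts in each wild-type library, 24 with at least 20 counts in each *hrde-2* library, and 16 with at most 3 counts in every *hrde-1* library. Leaving out single libraries gave between 101 and 242 genes, with 242 without wild-type replicate 1, 166 without wild-type replicate 2 and 179 without *hrde-2* replicate 1. Thinned to the smallest library, 87 genes met the rule (9 draws, 81 to 93), of which 34 were among the 106. Thinning itself adds sampling error at such low counts, and the part of depth in single memberships was not tested.

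Members called higher in *hrde-2* than in wild-type fell from 87 to 57 at an adjusted p under 0.01, for which no share over all genes is given. They ranged from 60 to 97 with libraries left out, where 4.14% to 13.4% of all genes were called. Against *hrde-1*, the count of 30 (3.22% over all genes) became 5 at that threshold, again without a share over all genes. It became 55 in a fit of the 6 libraries (7.08%). With the replicate block it was 17 in all 9 libraries (2.18%) and 64 in the 6 libraries (8.96%). With libraries left out it was 3 to 56, where 0.236% to 8.23% of all genes were called. In *hrde-1* against wild-type, the count of 2 (1.24% over all genes) became 17 without the filter (2.4%) and 10 with DESeq2 (3%). It was 0 at an adjusted p from edgeR under 0.01 (48 at an unadjusted p under 0.05), and no share over all genes is given for either. With libraries left out it was 0 to 19, where 0.681% to 6.12% of all genes were called. The replicate block in all 9 libraries left 82 and 2 calls for *hrde-2* and *hrde-1* against wild-type, with 7.12% and 1.05% over all genes. No member passed the filter in a fit of the wild-type and *hrde-1* libraries alone. The cause of these shifts was not tested. With single libraries left out the mean summed level was 12.3 to 17.1 CPM for wild-type, 55.6 to 64.6 CPM for *hrde-1* and 205.4 to 250.3 CPM for *hrde-2*. A mean of 3 libraries cannot move by 1 SD when a library is left out, so nothing is read from the size of these shifts. Of the alternative values for fold changes of named genes between the mutants, 58 lost the call, 16 gained one and 232 did neither. With 3 libraries a group and few reads a gene, the size of a single gene's change is uncertain.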
